A study of Homo sapiens with 4 samples.

Results

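Human chromosome 19 carries a large share of the genes for C2H2 zinc finger proteins. Here these genes were followed from naive NB4 cells to an arsenic trioxide (ATO) resistant line derived from them, along the chromosome. A member was any array probe placed on chromosome 19 of hg19 whose gene name was ZNF with a number and at most 1 further letter, ZSCAN with a number and at most 1 further letter, or ZFP with a number. The rule found 361 of the 41000 probes of the array, for 236 of 30811 named genes. All 236 names were found in RefSeq, 9 of them under a newer symbol, as 228 protein coding genes and 8 transcribed pseudogenes. The genes were picked with their difference between the lines in view, so the values below describe these 4 cultures and carry no test of their own.

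NB4 is an established human acute promyelocytic leukaemia (APL) line, and the resistant clone, NB4-EV-AsR1 in the methods and NB4-VM-AsR1 in the labels, was raised from it in-house. Both lines were kept in RPMI with FBS, and the resistant cells had been off ATO for 1 week when RNA was taken from 2 independent flasks of each. Each flask was hybridized to 1 single-colour Agilent array. The resistant line is 1 clone, all 4 arrays shared 1 slide with the naive flasks at positions 1 and 2 and the resistant flasks at positions 3 and 4, and position and line cannot be told apart.

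Most of these proteins bind DNA through a row of C2H2 fingers, each held by a zinc ion and joined to the next by a short conserved linker. Many carry a KRAB domain, which calls in the co-repressor TRIM28 and through it SETDB1, HP1 proteins and the NuRD complex, so that the bound chromatin is marked with methylated histone H3 lysine 9. The genes arose by repeated duplication and still lie in clusters along chromosome 19, and many of their products are known for silencing retrotransposons. ZSCAN proteins carry a SCAN domain, through which they pair with each other. ZFP36 (tristetraprolin) entered by its name alone, as it is a CCCH protein that binds AU-rich mRNAs and brings about their decay.

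The family history shows in the probes themselves, which is why some of them are printed here. The linker between fingers has a conserved core of glycine, glutamate, lysine and proline, and its coding sequence in any codons was searched for on both strands of the 60-base probes. It was found in 24 of the 361 member probes (6.65%) and in 58 of all 41000 (0.141%). The 5 probes below represented their genes in the comparison, and capitals mark the linker core.
ZNF85 (chr19:21132382-21132441, hg19, plus strand): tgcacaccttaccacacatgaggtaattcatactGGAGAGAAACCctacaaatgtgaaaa
ZNF493 (chr19:21607070-21607129, hg19, plus strand): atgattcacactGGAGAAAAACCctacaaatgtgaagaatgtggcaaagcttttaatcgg
ZNF492 (chr19:22847682-22847741, hg19, plus strand): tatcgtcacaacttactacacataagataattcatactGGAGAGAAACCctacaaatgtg
ZNF468 (chr19:53344528-53344587, hg19, minus strand): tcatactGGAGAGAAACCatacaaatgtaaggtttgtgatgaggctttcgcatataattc
ZNF808 (chr19:53057683-53057742, hg19, plus strand): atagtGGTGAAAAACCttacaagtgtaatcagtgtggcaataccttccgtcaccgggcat
The first 3 lie in the cluster between 19.8 and 24.3 Mb and share runs of at least 20 bases with probes of other member genes, ZNF85 with 6, ZNF493 with 8 and ZNF492 with 7. Probes of this kind may bind transcripts of a near-identical gene, and their values are uncertain as measures of a single gene. The ZNF468 probe shared such a run with 1 other gene and the ZNF808 probe with none. Over all members, 45 probes of 40 genes shared such a run, and they stood for 34 of the genes compared.

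Signals were taken as log2 of the processed intensity minus the 75th percentile of each array, so that 0 is the 75th percentile and a difference of 1 is a doubling. Levels are not compared between probes. To be tested, a probe had to stand well above background in both flasks of 1 line or of both, and 308 member probes did. A gene was represented by its brightest tested probe, and 210 of the 236 genes had one. Of the other 26, among them ZFP30, ZFP82, ZFP112 and ZSCAN4 (a gene known from early embryos), 17 had no probe well above background on any array and 9 had one on some. Members that entered only through the line in which they were bright had to differ, so no count below stands for all 236. RefSeq placed 4 of 179 genes, ZNF135, ZNF587, ZNF625 and ZNF714, on the strand opposite to their probe.

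The cells carried promyelocyte transcripts on every array, with MPO, CTSG, MYB and CD33 well above background throughout, as were 7 of the 8 promyelocyte genes measured. ELANE and AZU1 rose at the threshold used below. By the mean 6 of the 8 were higher in the resistant line, while CEBPE (-0.62) and CD33 (-0.29) were lower without passing it. ELANE read -6.56 in naive flask 2, below the lowest signal well above background on that array (-6.17). Of 5 T cell genes, CD3D, CD3G and CD8A were lower in the resistant line at the threshold used below, while CD3E and CD2 did not pass it, and CD2 stood at -5.11 and -4.90 in naive and -4.29 and -3.67 in resistant flasks on the log2 scale. The summed linear signal of the 5, in units of the 75th percentile, was 2.15 and 2.81 in the naive and 0.138 and 0.161 in the resistant flasks. For the B cell genes, of which 3 of 5 were measured and CD79B passed as lower, the sums were 1.76 and 1.50 against 1.68 and 1.76. Of the stromal genes 4 of 6 were above background on no array, and of the erythroid genes 3 of 6 were tested and none passed. The part of these genes in the differences described here was not tested.

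A probe was called at a Benjamini-Hochberg adjusted p below 0.05 from limma over all 28221 probes tested and a difference of at least 2-fold. Of the 210 genes, 5 (2.38%) were called, beside 5.47% of all 20964 genes tested. ZFP28 and ZNF682 rose in the resistant line (2.49% of all genes did), and ZSCAN18, ZNF30 and ZNF536 fell (2.98% of all genes did). By probe, 8 of 308 were called, beside 5.27% of all probes. In bulk RNA fewer cells that hold a transcript and less of it per cell cannot be told apart. Since the members were chosen on this comparison, nothing is read from the number called. The number called changed when single flasks were left out. With 1 flask left in a line, the spread comes from the other line alone, so calls gained there are not read. Between the naive flasks the standard deviation of the difference over the tested probes was 0.71, and between the resistant flasks 0.37. With normexp, another background correction, the number called was 0. A further 8 genes differed by at least 2-fold without being called, and 197 lay below 2-fold.

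**Figure D1:**
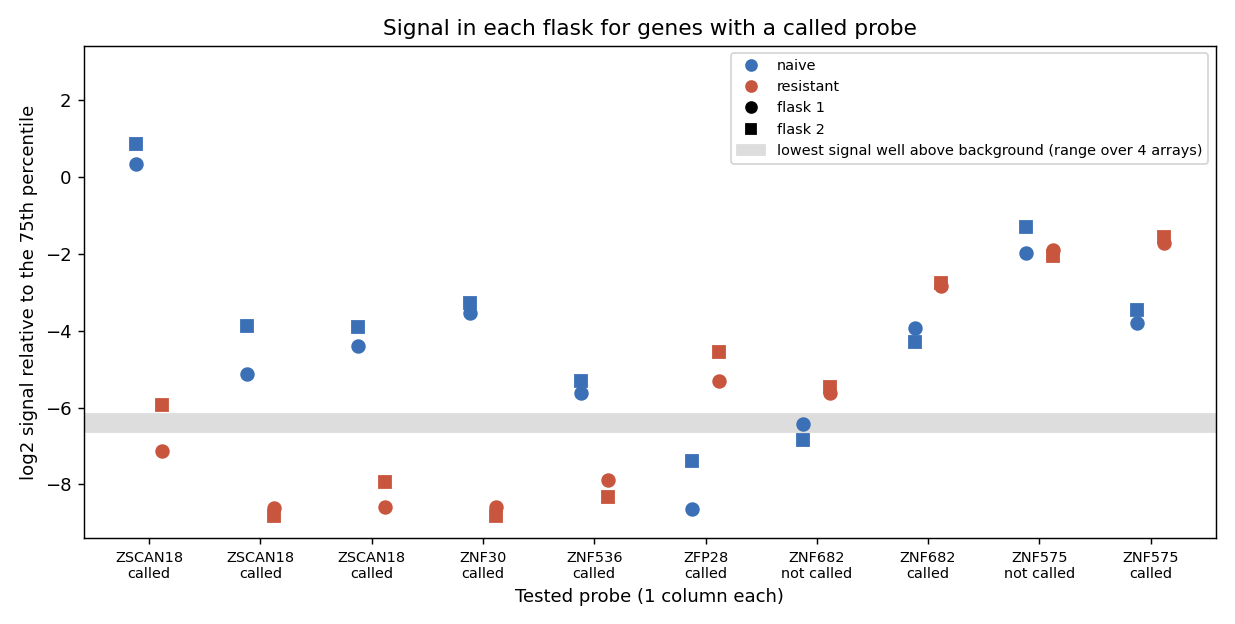
Log2 signal relative to the 75th percentile (vertical axis) in each naive (blue) and resistant (red) flask, circles for flask 1 and squares for flask 2, for every tested probe of the 5 called genes and of ZNF575, 1 column per probe. The 3 ZSCAN18 probes, ZNF30 and ZNF536 drop in resistant cells below the grey band, the lowest signals well above background on the 4 arrays, except for 1 reading at -5.94, while the 2 ZNF575 probes part, with only the dimmer one higher in resistant cells.

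ZSCAN18, a SCAN domain zinc finger gene whose promoter is known to be methylated in several cancers, had the widest difference of the set as read. Its brightest probe (chr19:58595379-58595438, hg19, minus strand) read 0.34 and 0.85 in the naive flasks and -7.12 and -5.94 in the resistant flasks. In the resistant line only flask 2 was well above background. With flask 1 raised to the lowest signal well above background on its array, the brightest probe was 106-fold lower in the resistant line. With normexp its log2 difference was -3.29 and it was not called. When bright local backgrounds were first set to the array median, normexp gave -4.28 and ZSCAN18 was called. The mean difference over all its tested probes was -5.15. Its other probes read -4.41 and -3.90, and -5.13 and -3.87, in naive flasks. Neither was well above background in a resistant flask, where they were at least 4.98-fold and at least 3.92-fold lower, and both were called.

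ZNF30, a KRAB zinc finger gene, read -3.54 and -3.28 in the naive flasks and -8.60 and -8.83 in the resistant flasks, where it was not well above background. It was at least 8.36-fold lower in the resistant line on the processed signal, while with normexp its log2 difference was -0.56 and it was not called. After bright local backgrounds were reset, normexp gave -1.16 and ZNF30 was called. Its neighbours on the chromosome in the same cluster stayed within 2-fold. ZNF536, a gene with high expression in brain that is known to hold back neuronal differentiation, was dim in both lines. It read -5.63 and -5.31 in naive and -7.89 and -8.33 in resistant flasks, and was at least 2.01-fold lower. It was likewise not well above background in the resistant line. With normexp its log2 difference was 0.08, or -0.29 with the backgrounds reset, and it was called in neither. Without resistant flask 2 it was not called.

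ZFP28, a KRAB zinc finger gene, went the other way. It read -8.63 and -7.39 in naive flasks, not well above background in either, and -5.32 and -4.55 in resistant flasks, at least 2.51-fold higher. Its 2 further probes were not well above background on any array, so the call rests on 1 probe of 3. With normexp its log2 difference was 0.64, or 0.57 when bright local backgrounds were first set to the array median, and the call was lost in both, as it was without resistant flask 2 and under 5 of 16 alternatives in all. ZNF682, from the cluster at 19.8 to 24.3 Mb, read -3.94 and -4.29 in naive and -2.83 and -2.77 in resistant flasks, a log2 difference of 1.31 (standard error 0.24) or 2.49-fold. Its second tested probe differed by 1.09 without being called, and its remaining probe was not well above background on any array. The ZNF682 call was the least steady of the 5, and was lost under 11 of 17 alternatives.

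In ZNF575 the probes parted. The brighter one read -1.98 and -1.29 in naive and -1.90 and -2.07 in resistant flasks, which overlap. The other, which was called, read -3.81 and -3.47 in naive and -1.72 and -1.57 in resistant flasks, 4.00-fold higher. Which transcripts of ZNF575 each probe reads was not settled here. Of the 77 genes with several tested probes, 52 had all probes on the same side and 25 had probes on both sides of 0. ZNF154, a gene often methylated in tumours, was one of the latter, with -1.35 at its brightest probe and 0.36 at the other. The first was -2.12 without naive flask 1 and -0.58 without naive flask 2.

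The promoters of the called genes held in the RefSeq table are shown because methylation of CpG is a known way in which promoters of such genes are silenced. Each is the 250 bases before the gene's start in GRCh38.p14, read 5′ to 3′ on the gene's strand, with CpG in capitals.
ZSCAN18 (chr19:58118405-58118654, minus strand): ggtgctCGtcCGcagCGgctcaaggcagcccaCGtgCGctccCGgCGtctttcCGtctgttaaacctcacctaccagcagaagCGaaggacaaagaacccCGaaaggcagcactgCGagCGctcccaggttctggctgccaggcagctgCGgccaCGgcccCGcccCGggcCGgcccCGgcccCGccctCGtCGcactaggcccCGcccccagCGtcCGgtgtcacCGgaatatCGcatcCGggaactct
ZNF536 (chr19:30225342-30225591, plus strand): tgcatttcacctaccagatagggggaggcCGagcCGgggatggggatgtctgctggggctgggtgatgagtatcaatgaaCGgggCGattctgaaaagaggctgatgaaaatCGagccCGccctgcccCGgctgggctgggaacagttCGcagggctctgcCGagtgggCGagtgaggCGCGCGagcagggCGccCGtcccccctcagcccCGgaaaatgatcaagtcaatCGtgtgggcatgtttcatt
ZNF682 (chr19:20039506-20039755, minus strand): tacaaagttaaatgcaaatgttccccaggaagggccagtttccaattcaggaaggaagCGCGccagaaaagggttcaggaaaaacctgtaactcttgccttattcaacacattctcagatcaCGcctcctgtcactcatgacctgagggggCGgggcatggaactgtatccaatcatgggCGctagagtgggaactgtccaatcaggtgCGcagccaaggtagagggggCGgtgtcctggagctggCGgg
The ZSCAN18 window holds 27 CpG, the ZNF536 window 17 and the ZNF682 window 8. Over the 199 members with a promoter in the table, the median was 16, and over all 27305 genes of the table it was 11. An observed over expected CpG ratio above 0.6 was found in 70.9% of the members and 47.4% of all genes. Among members with that ratio above 0.6 the median log2 difference was 0.25 (129 genes), and among those at or below it 0.34 (50 genes). Across the 179 genes with both values, Pearson's r of the log2 difference with the number of CpG was -0.18, given as a description since neighbouring genes share their origin and genes are not replicates. DNA methylation was not measured.

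Below the called genes, most of the set sat slightly higher in the resistant line. Of the 210 genes, 151 (71.9%) had a higher mean there, against 48.8% of all genes tested. Both resistant flasks lay above both naive flasks in 108 genes (51.4%, against 25.2% of all genes) and below both in 37 (17.6%, against 28.1%), and in 65 they overlapped. The median log2 difference was 0.31, or 1.24-fold, with quartiles of -0.07 and 0.49, and without naive flask 2 it was 0.20. Read by flask, the median over the genes relative to each gene's naive mean was 0.10 and -0.10 in the naive flasks and 0.28 and 0.27 in the resistant flasks. The naive flasks thus differed from each other in the same direction for many members, with a median of 0.21 between them, where the median over all genes tested was -0.09. In 85 of the 210 genes the gap between the naive flasks was larger than the difference between the lines.

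Zinc finger genes under the same name rule on other chromosomes leaned the same way, with a median of 0.19 over 249 genes, of which 44.6% had both resistant flasks above and 20.9% below. The other chromosome 19 genes with a RefSeq accession did not, with a median of -0.01 over 738 genes, and 27.0% above and 28.2% below. All 20964 genes together had a median of -0.01. The GC content of the probes differed between these sets, with medians of 40.0% for the members, 40.0% for the same family elsewhere, 53.3% for the other chromosome 19 genes and 43.3% for all genes. The part of base composition in the difference was not tested.

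**Figure D2:**
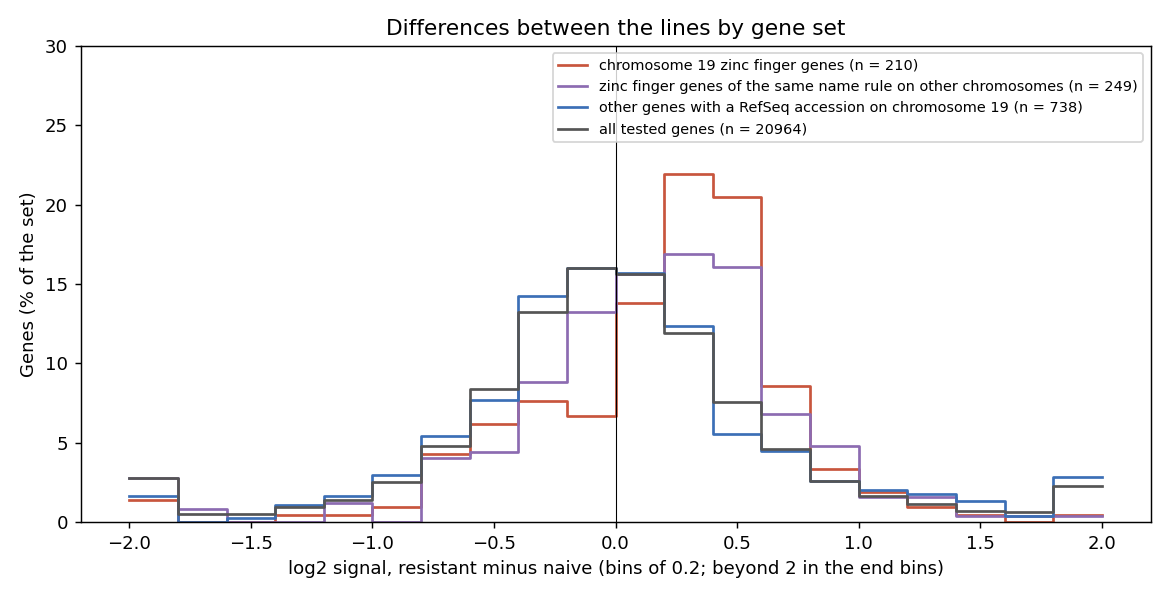
Share of genes (vertical axis, percent of each set) by log2 difference of resistant minus naive (horizontal axis, bins of 0.2, with values beyond 2 in either direction in the end bins). The chromosome 19 zinc finger genes (red, 210) and those on other chromosomes (purple, 249) peak to the right of 0, with medians of 0.31 and 0.19, and the other chromosome 19 genes (blue, 738) and all genes (grey, 20964) lie around 0.

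Position along the chromosome divided the set further. Members less than 1 Mb apart were joined, and groups of at least 5 tested genes were kept, which gave 8 groups with 196 genes and left 14 genes outside. They are lettered A to H from the end of the short arm on. In 6 of them the median lay above 0.2, in D it was 0.01, and in G it was -0.41. The longest stretch of neighbouring tested genes with a higher mean in resistant cells ran over 26 genes from ZNF559 to ZNF791, and the longest with a lower mean over 8 genes from ZNF611 to ZNF347. No 3 neighbours differed by 2-fold or more in the same direction.

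**Figure D3:**
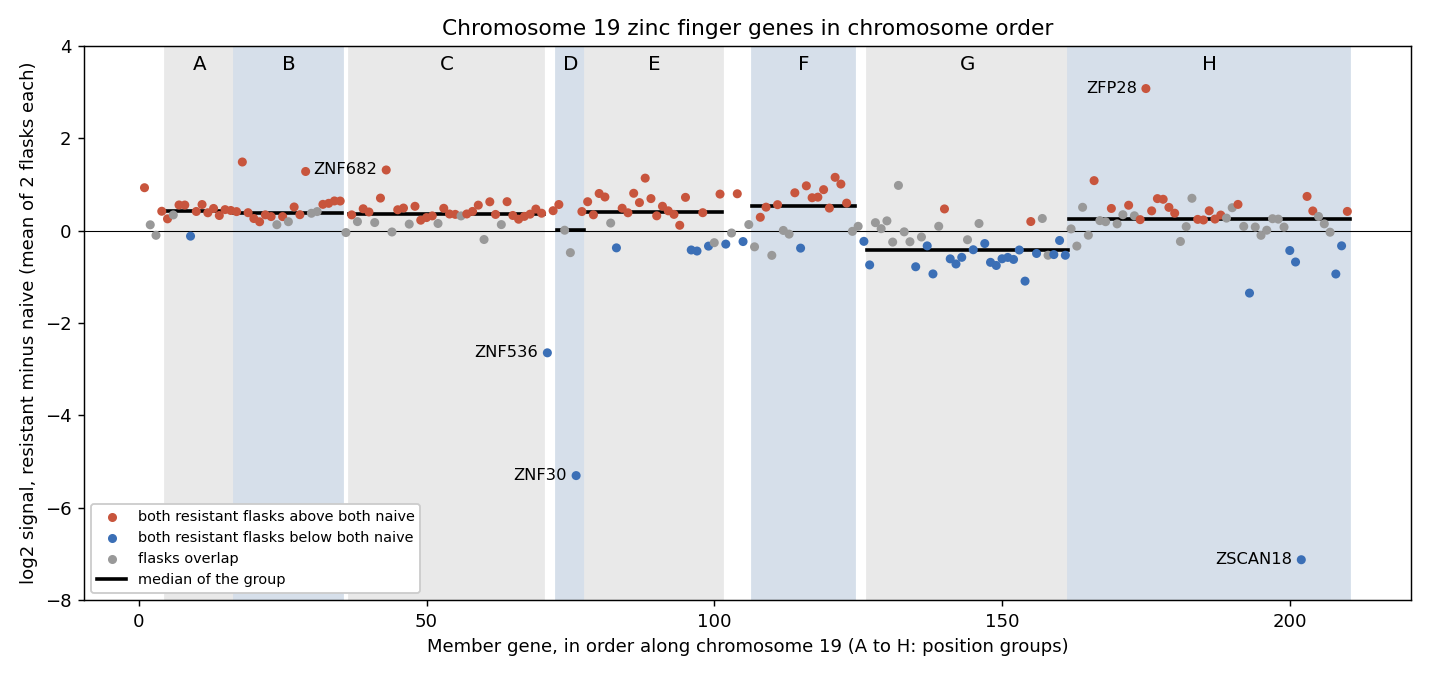
Log2 difference of resistant minus naive (vertical axis) for the 210 genes in order along chromosome 19 (horizontal axis, rank), with position groups A to H shaded and their medians as black lines. Red points have both resistant flasks above both naive flasks, blue points both below and grey points overlap, and in group G 20 of 35 points are blue while in groups B and C none is.

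Groups A to C lay on the short arm. In group A (7.1 to 9.8 Mb, from ZNF557 to ZNF562) 11 of 12 genes were higher, with a median of 0.43, and ZNF317 was the exception at -0.12 (0.03 with scale normalization). ZNF177 read 1.29 and 1.95 in naive and 2.20 and 2.17 in resistant flasks, and ZNF558 read 1.03 and 1.77 against 1.87 and 2.04. Neither pair overlapped, and no gene of the group reached 2-fold. In group B (11.7 to 12.7 Mb, ZNF627 to ZNF791) all 19 genes had a higher mean, with a median of 0.39, and the resistant flasks lay above the naive ones in 15, beside 48.8% and 25.2% of all genes. ZNF823 had the widest difference there, from -2.24 and -2.91 in naive to -1.20 and -0.97 in resistant flasks, and was not called. ZNF442 followed, from -3.19 and -4.05 to -2.42 and -2.25, likewise not called. ZNF799 read -2.22 and -4.03 in the naive flasks, a gap wider than its difference of 0.38 between the lines.

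Group C (19.8 to 24.3 Mb, ZNF101 to ZNF254) was the densest in near-identical genes. Here 32 of 34 genes had a higher mean, against 48.8% of all genes, and the median was 0.36. The flasks lay apart in 26 toward higher values and in none toward lower ones, against 25.2% and 28.1% of all genes. Its members include ZNF91 and ZNF93, known to silence SVA and LINE-1 retrotransposons. ZNF91 read 0.78 and 1.05 in naive and 1.17 and 1.16 in resistant flasks, and ZNF93 read 0.82 and 0.16 against 1.05 and 1.34. ZNF675, whose product is known to bind TRAF6 and damp its signal, read 1.02 and 0.84 against 1.36 and 1.12. In each of the 3 the resistant flasks lay above, by less than 2-fold. The probes of 22 of the 34 genes shared a run of at least 20 bases with the probe of another member, and over the 12 that did not the median was 0.34.

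Groups D to H lay on the long arm. Group D (35.2 to 35.4 Mb, ZNF302 to ZNF792) had only 5 genes, of which ZNF30 is the one described above. At its edges ZNF302 read -0.47 and -0.41 in naive and 0.20 and 0.06 in resistant flasks, and ZNF792 read -4.77 and -4.92 against -4.40 and -4.46. Group E (36.7 to 38.2 Mb, ZNF565 to ZNF573) had 19 of 24 genes higher and a median of 0.41. ZNF345 read -5.01 and -4.75 in naive and -3.86 and -3.62 in resistant flasks, and ZFP14 differed by 0.81, with both resistant flasks above. ZNF568, the human counterpart of a mouse repressor of placental Igf2, read -4.97 and -5.02 against -4.65 and -4.69. Neither the 2-fold difference of ZNF345 nor the smaller ones were called. The neighbours ZNF569 and ZNF570 lay the other way, at -3.35 and -3.45 against -3.57 and -4.07 and at -4.24 and -4.42 against -4.80 and -4.74. ZNF382 read -4.04 and -4.36 against -4.47 and -4.68. With normexp the differences of these 3 genes were 0.10, 0.13 and 0.18. ZNF146, a gene of fingers without a KRAB domain, differed by 0.34 at its brightest probe and by -0.39 at the other.

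Group F (44.0 to 45.6 Mb, ZNF575 to ZNF296) had the highest median, 0.54, with 13 of 18 genes higher. ZNF227 read -2.47 and -2.71 in naive and -1.62 and -1.26 in resistant flasks, and ZNF235 read -4.08 and -4.96 against -3.54 and -3.48. ZNF224, a repressor of the aldolase A gene that is known to work with WT1 in leukaemia cells, read -2.70 and -2.43 against -1.85 and -1.85. The flasks did not overlap in any of these 3 genes, and none was called. ZNF45 and ZNF180 differed by 0.56 and 0.60, again with the flasks apart.

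Group G (52.1 to 54.1 Mb, 52092551 to 54081376 of hg19, from ZNF175 to ZNF331) ran against the rest of the set. Of its 35 genes 26 had a lower mean in the resistant line, as had 51.2% of all genes tested. Both resistant flasks lay below both naive flasks in 20 (57.1%, against 28.1% of all genes) and above both in 2 (5.71%, against 25.2%), ZNF880 and ZNF665. None was called by limma, with 8 at an unadjusted p below 0.05 and 5 by the methods' t-test before adjustment. The share of all genes at that p is not given here, so nothing is read from these 2 counts. Counted by probe, 41 of the 55 tested probes had a lower mean, against 51.7% of all probes. The median by flask was 0.12 and -0.12 in the naive and -0.36 and -0.39 in the resistant flasks, so the resistant flasks lay close together and both below the naive ones.

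**Figure D4:**
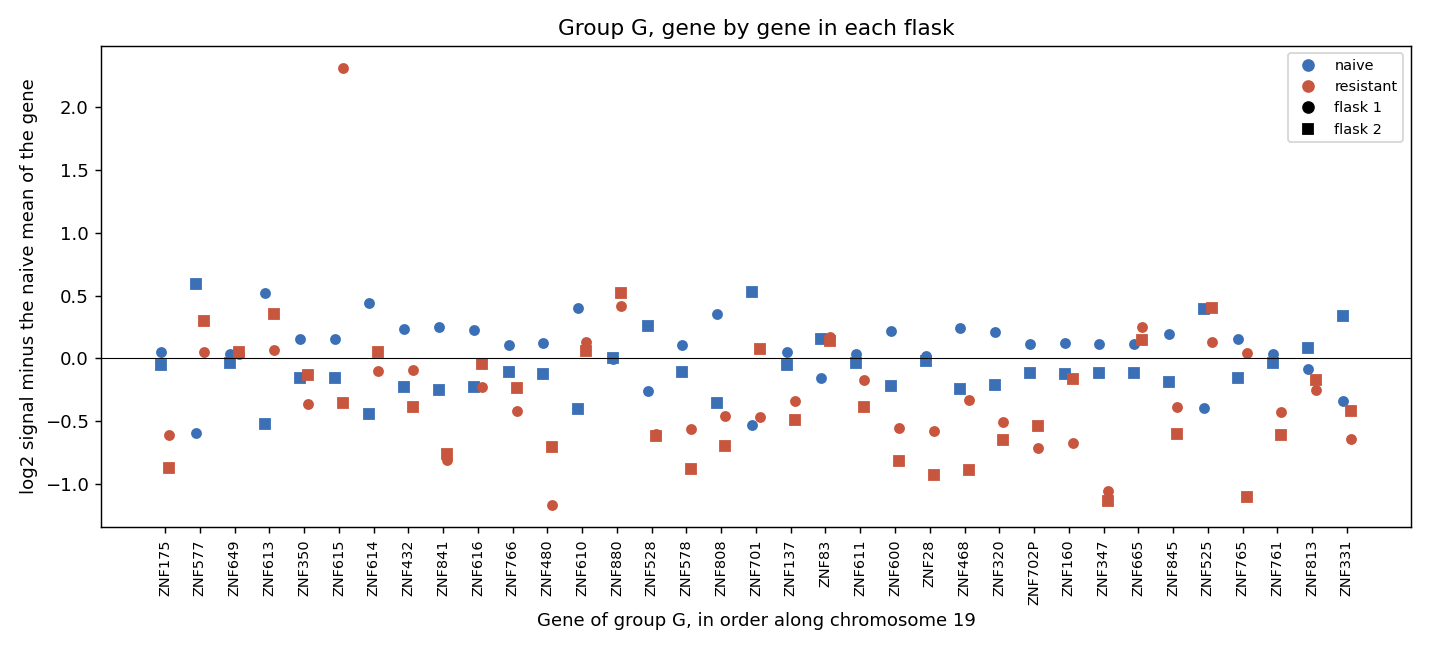
Log2 signal minus the gene's naive mean (vertical axis) in each naive (blue) and resistant (red) flask for the 35 genes of group G in chromosome order (horizontal axis), circles for flask 1 and squares for flask 2. The red points of most genes lie between 0 and -1, and ZNF615 stands out with its resistant flasks apart, -1.72 and -4.39 on the scale of the text. The ZNF525 points include 3 saturated readings.

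ZNF347 had the widest difference in group G. It read -2.31 and -2.54 in naive and -3.48 and -3.56 in resistant flasks, a difference of -1.09 (standard error 0.23), and its second probe differed by -1.42. Neither was called. ZNF480 read -0.16 and -0.40 against -1.45 and -0.99, ZNF841 read -2.93 and -3.43 against -3.99 and -3.94, and ZNF28 read -1.85 and -1.89 against -2.44 and -2.80. ZNF175, known as a restrictor of the HIV-1 promoter, and ZNF600 differed by -0.74 and -0.69. ZNF331, an imprinted gene at the distal edge, read -0.82 and -0.15 in naive and -1.13 and -0.91 in resistant flasks. In each of these 7 genes both resistant flasks lay below both naive flasks, and only ZNF347 differed by 2-fold.

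Some members of group G did not separate in this way. ZNF350, whose product is a partner of BRCA1, read 0.56 and 0.26 in naive and 0.05 and 0.28 in resistant flasks, which overlap. ZNF615 read -3.88 and -4.19 in naive flasks but -1.72 and -4.39 in the resistant ones, so its difference of 0.98 came from resistant flask 1, and without that flask it was -0.35. ZNF880 read -3.13 and -3.12 against -2.71 and -2.61. ZNF765 had probes on both sides of 0, at -0.53 and 1.11. The brightest ZNF525 probe was saturated in 3 of 4 flasks, so its difference and its sign are uncertain, and its other probe differed by -0.78. ZNF525 is still counted in the values given for the group. ZNF665 likewise had 0.20 at its brightest probe and -0.59 at the other.

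The neighbours of group G that are not zinc finger genes of the name rule were few. The 7 with a RefSeq accession between its ends had a median of 0.03, from -0.58 to 0.71, with 5 higher and 2 lower. In group A the 33 such neighbours had a median of -0.13, with 22 lower, beside 11 of 12 members higher. Median probe GC was 40.0% in group G and between 38.3% and 42.5% in the others. The probes of 7 of the 35 genes shared a run of at least 20 bases with another member's probe, and over the 28 that did not the median was -0.26. With the normexp background correction, which moved the median of all probes tested by 0.15, the median of group G was -0.04.

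**Figure D5:**
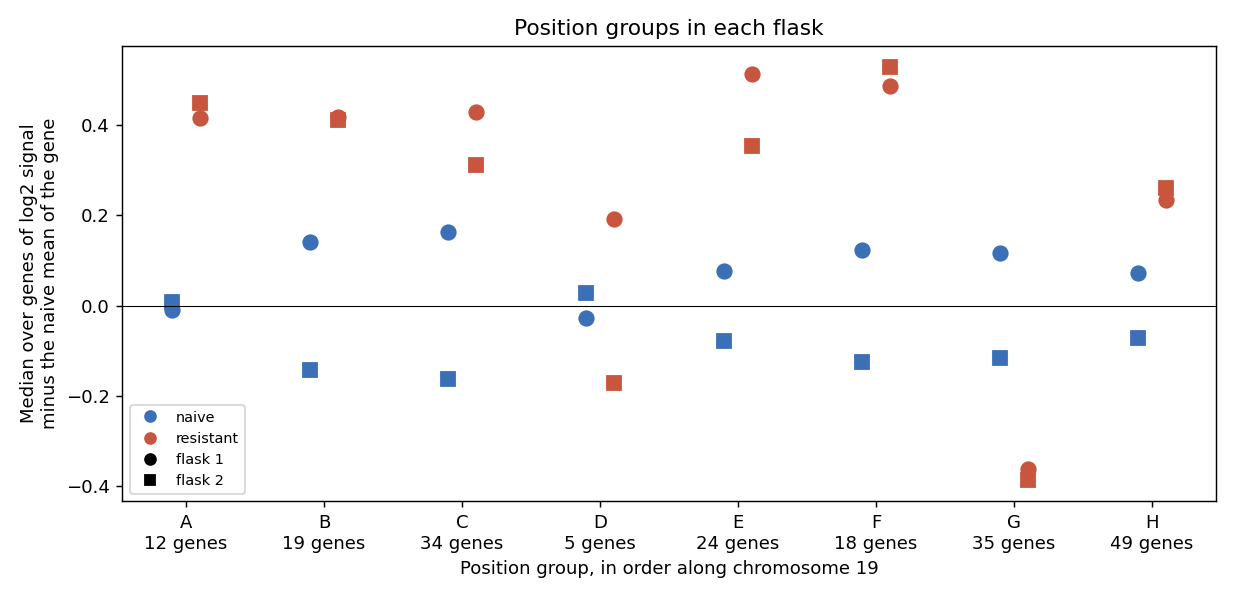
Median over the genes of each position group (vertical axis, log2 signal minus the naive mean of the gene) in each naive (blue) and resistant (red) flask, circles for flask 1 and squares for flask 2, in order along chromosome 19. The resistant flasks lie above both naive flasks in groups A to C, E, F and H and below both in group G, at -0.36 and -0.39, and overlap them in group D.

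Group H (56.0 to 59.0 Mb, ZNF628 to ZNF446) is the largest, with 49 genes. It holds ZSCAN18 and ZFP28, and 38 of its genes had a higher mean, with a median of 0.25, or 0.16 without naive flask 2. Resistant flasks lay above in 19 (38.8%, against 25.2% of all genes) and below in 6 (12.2%, against 28.1%). ZNF274, which is known to bring SETDB1 to the finger-coding ends of other zinc finger genes, read -0.31 and -0.77 in naive and -0.07 and -0.15 in resistant flasks. ZNF580 read -0.84 and 0.17 against 0.68 and 0.83, and ZNF584 read -0.61 and -1.27 against -1.85 and -1.91. Both separated the lines without being called.

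The other SCAN genes of group H were not called. ZSCAN1 read -3.44 and -3.61 in naive and -3.86 and -4.05 in resistant flasks. ZSCAN22 read -3.87 and -4.13 against -3.90 and -4.16, and ZSCAN5A read -0.17 and -1.20 against -0.52 and -0.55. ZSCAN22 and ZSCAN5A overlapped between the lines. ZFP36, which lies outside the groups, read -0.45 and -0.22 against -0.55 and -0.71, a difference of -0.29.

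The partners through which KRAB proteins act were followed with a list of 40 co-repressor and chromatin genes. Of the 38 tested, 36 were well above background on all 4 arrays at their brightest probe, and CBX1 and DNMT3A each lacked a value on 1 array there. None was called by limma, with 3 at an unadjusted p below 0.05 and 4 by the methods' t-test before adjustment. Nothing is read from these unadjusted counts, as the share of all genes is not given here. Their median was 0.17, beside -0.01 over all genes tested, and 24 of 38 had a higher mean, beside 48.8% of all genes. Of all genes tested, 5.47% were called. TRIM28, the scaffold that binds the KRAB domain, read 3.84 and 3.39 in naive and 2.89 and 2.94 in resistant flasks, a difference of -0.71. SETDB1, its histone methyltransferase, read 2.37 and 3.02 against 3.22 and 3.29, a difference of 0.56, or 0.23 without naive flask 1. Neither was called.

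DNMT3B, a de novo DNA methyltransferase, was lowest of the list, from 4.51 and 3.55 in naive to 2.04 and 2.25 in resistant flasks. It was not called (adjusted p 0.057 by limma), but the call depended on the setting. With all 4 arrays kept, limma gave adjusted p 0.035 with an intensity trend and 0.029 with scale normalization. With normexp after bright local backgrounds were reset, limma gave adjusted p 0.013. Under the other settings that kept all 4 arrays DNMT3B was not called. Its difference of -1.89 ran from -2.37 to -1.41 without single flasks. MPHOSPH8, a HUSH complex subunit that binds methylated H3 lysine 9, read 0.14 and 0.09 against 0.64 and 1.30, a difference of 0.85 at its brightest probe and 0.36 as the mean over all its tested probes. Of the HP1 genes, CBX5 differed by 0.08, or -0.15 with normexp, and CBX3 was saturated in 2 flasks. CBX1, the other HP1 gene, lacked a value in resistant flask 1 and read 3.64 and 3.09 in naive and 4.20 in the remaining flask. HDAC1 of the NuRD complex differed by -0.51, and ATRX, a chromatin remodeller known to bind zinc finger gene ends, by 0.45.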

How the data were processed

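The authors scanned 4 single-colour arrays with Agilent Feature Extraction 10.5.1.1 and deposited the processed, mean and local background intensity of each spot, on a linear scale and not normalized between arrays, and their own log2 table of the same arrays, scaled by a 75th percentile shift. The members, gene lists and position groups were chosen with earlier results of these data known. Without control and outlier spots, log2 intensities were averaged per probe and each array's 75th percentile was subtracted. Lines were compared in R 4.3.3 with limma 3.58.1, and the code was tested on simulated data. Fold bounds set a dim probe to the lowest signal well above background. Well above background were 27922 to 28244 probes per array, and 457 to 565 were saturated. Arrays have no read depth, and their number limits the precision. With 2 flasks per line an exact two-sided permutation test cannot go below p = 0.333. Named were the called genes, the ZSCAN and ZFP genes, genes whose probes disagreed and co-repressor genes. Other names were chosen after their values were seen, for size or known function. A planned count of fingers per protein was not run. Alternatives were other background corrections, normalizations, dim filters, probe choices, tests, a replicate block, flasks left out and other gaps.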

Additional observations from a re-analysis of the deposited data

How the results depend on the processing

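The number of called member genes, 5 at first, was 0 with normexp (2 at an unadjusted p below 0.05), 0 when every array had to be well above background (36 unadjusted), 0 by the methods' t-test with Benjamini-Hochberg adjusted values (34 unadjusted) and 3 with normexp after bright local backgrounds were reset. Without single flasks it ran from 2 (without resistant flask 2) to 17 (without naive flask 2), with 16 without naive flask 1. With the replicate number as a replicate block it was 4, and the numbers give only 2 pairs (correlation of deviations 0.12), too few to pair the flasks. The unadjusted counts are given without the share of all genes, so nothing is read from them. Requiring every array to be well above background removed ZSCAN18, ZNF30, ZNF536 and ZFP28 before testing, so they could not be called there. Of the 5 called genes only ZNF682 was still tested, at an adjusted p of 0.056 by limma. The median over members, 0.31, was 0.21 with the reset normexp and between 0.20 and 0.35 without single flasks. Scale normalization and normexp shifted all probes by 0.10 and 0.15. Group medians moved beyond the flask spread as follows. Group A was 0.34 with normexp, 0.35 reset, 0.55 with scale, 0.47 with the median shift, 0.36 over all probes and 0.32 to 0.45 without single flasks. Group C was 0.50 with scale and 0.27 to 0.51 without flasks. Group D was 0.21 with the strict filter or without called genes, and 0.38 over all probes. Group E was 0.29 reset, 0.50 with scale and 0.35 to 0.55 without flasks. Group F was 0.64 with scale and 0.40 to 0.62 without flasks. Group G was -0.041 with normexp, -0.20 reset and -0.26 with probes sharing no run, and stayed within the flask spread without single flasks (-0.46 to -0.30). Group H was 0.34 with scale and 0.16 to 0.30 without flasks. A gap of 2 Mb gave 5 groups and joined G with H and 2 further genes (86 genes, median 0.08), and 0.5 Mb gave 9. Normexp turned the sign of ZNF154 (0.015), ZNF382 (0.18), ZNF569 (0.096), ZNF570 (0.13), ZNF536 (0.080), ZNF808 (0.045), ZNF85 (-0.024), ZSCAN1 (0.12), ZSCAN22 (0.21) and CBX5 (-0.15). ZSCAN22, near 0, was also 0.025 reset, 0.046 with quantile, 0.0030 with scale, 0.012 with median shift, and -0.16 to 0.10 without single flasks. ZNF317 was 0.035 with scale, and CBX5 -0.090 reset, -0.38 over all probes, and -0.14 (naive 1 left out) to 0.31 without single flasks. Without single flasks ZNF525, whose probe is saturated, ran from -0.13 (naive 1 left out) to 0.66, ZNF799 from -0.53 (naive 2) to 1.28, ZSCAN5A from -0.37 (naive 2) to 0.66, ZNF615 from -0.35 (resistant 1) to 2.31, and ZNF765 from -1.11 to 0.043 (resistant 2). The mean over all probes gave -0.022 for ZNF146, -0.26 for ZNF525, 0.83 for ZNF575, -0.20 for ZNF665 and 0.29 for ZNF765. The causes were not tested. Alternatives built from shared runs, the linker and the called genes, and the reset group medians, were chosen after seeing the data.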
